A study of Mus musculus with 6 samples.

Results

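The inner retina shapes the output of photoreceptors with inhibitory interneurons, and 31 genes that mark them were followed here in whole retinas of wild-type (WT) and Wfs1-KO mice. The genes were taken by name from the deposited table of 55376 genes, and all 31 were found. They cover transmitter synthesis and transport, neuropeptides, calcium-binding proteins, gap junctions and transcription factors of amacrine and horizontal cells. Of these, 30 had enough counts to be tested and Ptf1a did not.

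RNA-seq was performed on 3 WT and 3 Wfs1-KO retinas at postnatal day 240, which the sample labels place on a C57x129 strain while the methods of the study name C57BL/6 J. The mutants were Wfs1-/- mice of a targeted line that lacks exon 8 of Wfs1 and the controls were wild type, and the labels name no treatment in either group. The libraries came from 3 different mice per group. Because whole retinas were sequenced, fewer amacrine or horizontal cells and less RNA per cell cannot be told apart in any value given here.

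Amacrine cells are the interneurons of the inner plexiform layer. They release GABA or glycine onto bipolar, ganglion and other amacrine cells, and smaller populations also use acetylcholine, dopamine or glutamate, with neuropeptides as cotransmitters. Horizontal cells sit in the outer plexiform layer, receive photoreceptor input and return inhibition to it, and they are coupled by gap junctions. Several of the genes are shared with other retinal neurons: Pax6 and Calb2 are also used by ganglion cells, and Prox1 by some bipolar cells.

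Total counts per retina ranged from 17916885 to 101334381, and each level is in CPM, that is, read counts divided by library size after TMM correction for composition. Wfs1 itself had between 61.4 and 69.9 CPM in WT retinas and between 0.900 and 11.5 CPM in mutant retinas. The Wfs1-KO replicate 2 library stood apart, with a mean correlation of 0.918 to the others against 0.962 to 0.971 for the remaining 5, so results are given with and without it. The summed level of 6 blood genes was 480.5 CPM in that retina and between 12.3 and 41.3 CPM in the others, that of 8 microglia and macrophage genes was 258.8 CPM against 35.7 to 53.1 CPM, and that of 8 pigment epithelium genes was 394.9 CPM against 48.0 to 159.3 CPM. All of the blood genes, 7 of the microglia and macrophage genes and 5 of the pigment epithelium genes were highest there, and none of these markers was at 0 in every retina. Among 11 lens genes the sum was 8.95 CPM in that retina and between 1.83 and 4.51 CPM in the others. The sum of 8 rod genes was 51020 CPM in it and at least 63710 CPM in the others. WT replicate 3 had 4 counts of Xist and 1137 of Ddx3y, while the other 5 retinas had at least 10583 and at most 2. The part of these differences in the results was not tested.

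None of the tested genes passed the threshold of an adjusted p under 0.05 (the quasi-likelihood test of edgeR, Benjamini-Hochberg adjusted over 18547 genes), and their adjusted p-values lay between 0.979 and 0.999. Over all tested genes 0.0108% passed. At an unadjusted p under 0.05 there were also 0 of 30, against 2.81% of all tested genes, 2.24% higher and 0.566% lower in mutant retinas. With DESeq2 there were 0 at the adjusted threshold (0.246% of all genes) and 3 at the unadjusted one, Sst, Npy and Onecut2, all higher in mutant retinas, where 3.15% of all genes had such a p, 2.69% higher and 0.463% lower. With limma-voom and sample quality weights, which gave Wfs1-KO replicate 2 little weight, Sst was higher and Calb1 and Tac1 were lower at an unadjusted p under 0.05, against 7.63% of all genes, 4.30% higher and 3.33% lower, and 0 of 30 passed the adjusted threshold (0.189% of all). Of the 30 log2 fold changes 20 were then positive, against 52.9% of all. The median log2 fold change, Wfs1-KO over WT, was 0.014 for the 30 genes and 0.023 over all tested genes, and 16 of the 30 were positive, against 52.8% of all.

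The absence of a call was read together with the width of the intervals. With all 6 retinas the 95% interval of the log2 fold change stayed within a 2-fold change in both directions for 21 of the 30 genes, and without Wfs1-KO replicate 2 for 27. The median half-width of the interval was 0.63 with all retinas and 0.38 without that retina, on the log2 scale, against 0.72 and 0.44 over all tested genes. Without it 0 of 30 genes had an adjusted p under 0.05 (0.125% of 19178 genes in edgeR's test did) and 0 of 30 an unadjusted p under 0.05 (5.19% of all, 2.80% higher and 2.39% lower). The median log2 fold change was then 0.055, against -0.000 over all, and 17 of 30 were positive, against 49.9% of all.

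**Figure D1:**
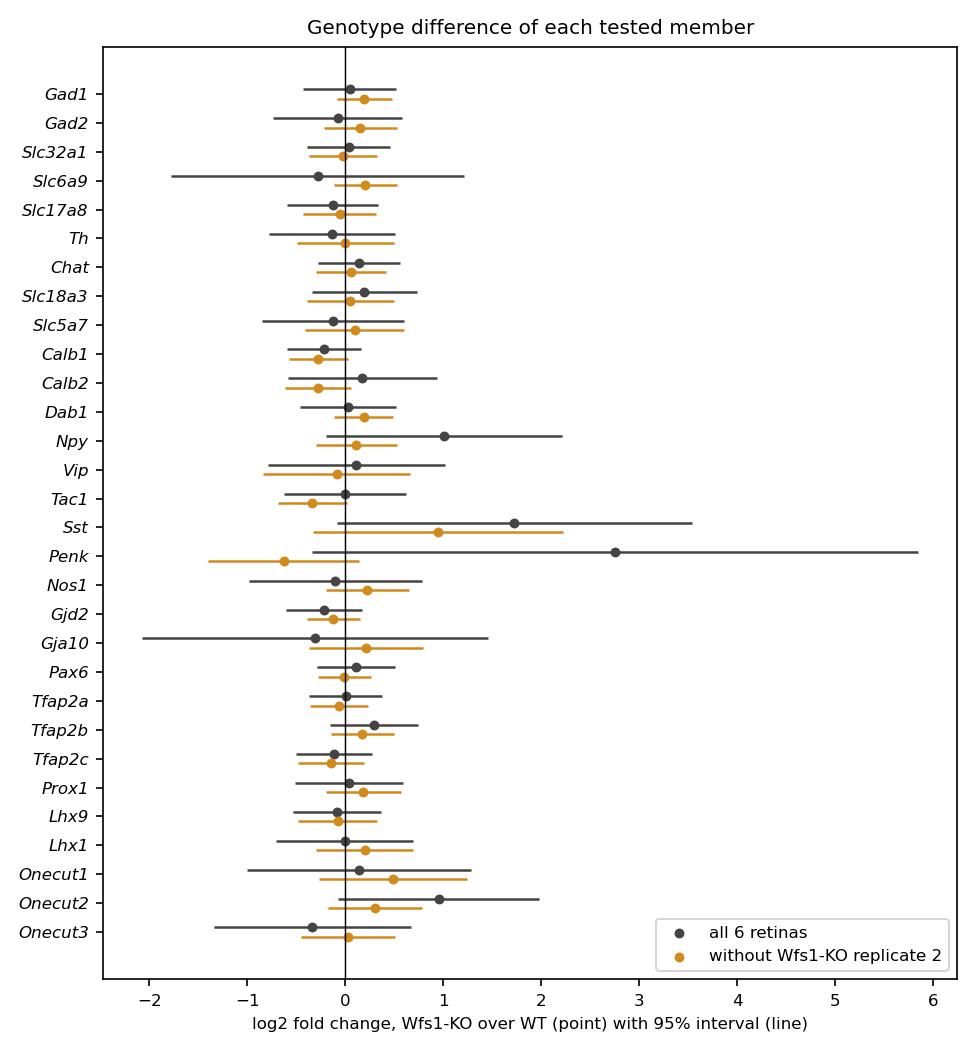
Log2 fold change of each tested gene (horizontal axis, Wfs1-KO over WT) with its 95% interval from edgeR's fit, for all 6 retinas (grey) and without Wfs1-KO replicate 2 (orange). Every interval includes 0, and the widest with all retinas, for Penk, runs from -0.35 to 5.85. Without that retina the Penk interval runs from -1.40 to 0.14, and the widest, for Sst, from -0.33 to 2.23.

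Per exon length, the genes ranged in WT retinas from Calb2 with 223.6 ± 34.5 RPKM (SD, n = 3; CPM per kilobase of exon) to Ptf1a with 0.0437 ± 0.0391 RPKM. Calb2 (calretinin) was followed by Gad1 with 77.2 ± 6.68 RPKM, Pax6 with 46.4 ± 2.16 RPKM and Gjd2 with 43.9 ± 0.38 RPKM (SD, n = 3 each). These placed Calb2 above 99.1%, Gad1 above 96.5% and Pax6 above 93.2% of all tested genes in level per length. Of the 30 steps from each gene to the next in the WT order, 7 separated genes whose 3 WT values did not overlap, and at the other 23 the neighbours overlapped. Calb2, Gad1 and Pax6 each stood clear of the next gene, whereas Gjd2, Slc32a1, Slc6a9 and Tfap2b formed a run of overlapping neighbours. The horizontal cell genes Lhx1 (1.86 ± 0.42 RPKM), Gja10 (1.12 ± 0.21 RPKM) and Onecut1 (0.479 ± 0.176 RPKM; SD, n = 3 each) lay at the lower end, as did Onecut2, a gene with 16234 bases of exon. The defining amacrine genes Gad1, Slc6a9, Tfap2b and Pax6 were thus well expressed in WT retinas, and the horizontal cell genes were detected at low levels apart from Calb1 with 22.4 ± 2.11 RPKM and Prox1 with 22.4 ± 4.67 RPKM (SD, n = 3 each).

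**Figure D2:**
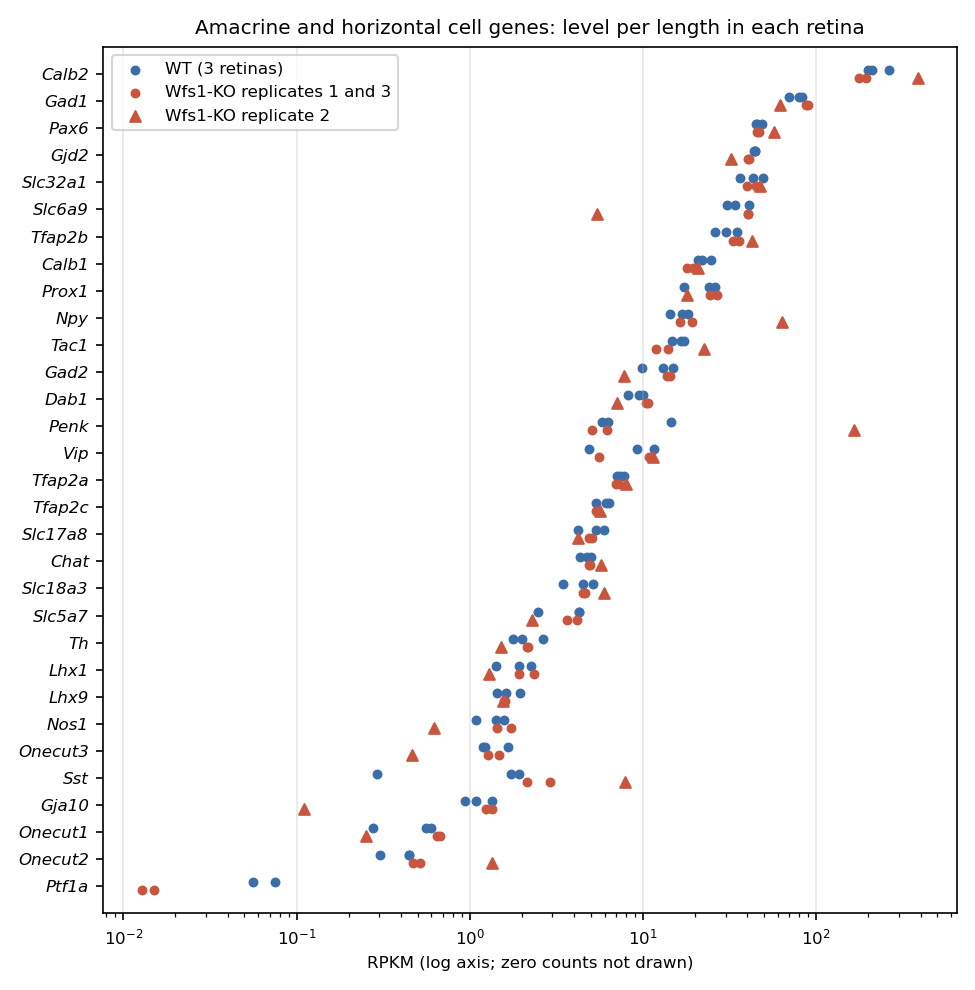
Level per exon length (RPKM, log axis) of the 31 genes in each retina, ordered by the WT mean, with WT in blue, Wfs1-KO replicates 1 and 3 as red circles and Wfs1-KO replicate 2 as red triangles. Calb2 had the highest WT mean, 223.6 RPKM, and Ptf1a the lowest, 0.0437 RPKM, and the triangles of Penk, Slc6a9 and Gja10 lie far from the other points of their rows.

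With all retinas the genes of inhibitory transmission overlapped between genotypes, and Wfs1-KO replicate 2 was the lowest retina for Gad1, Gad2 and Slc6a9. Gad1, which makes most of the GABA in the adult brain, lies on chromosome 2 of mm10 from 70553072 to 70602014 and had 304, 359 and 348 CPM in WT replicates 1, 2 and 3 and 379, 269 and 393 CPM in Wfs1-KO replicates 1, 2 and 3. The mutant values enclosed the WT values. Its log2 fold change was 0.04 (standard error, SE, 0.20; 95% interval -0.43 to 0.52), and 0.19 (SE 0.13; 95% interval -0.09 to 0.47) without Wfs1-KO replicate 2, when both mutant retinas lay above all WT retinas.

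Gad2, the synaptic isoform of glutamate decarboxylase, had 56.9, 85.5 and 75.4 CPM in WT and 79.2, 44.5 and 82.6 CPM in mutant retinas. WT replicate 1 and Wfs1-KO replicate 2 were the low ones. The log2 fold change of Gad2 was -0.08 (SE 0.28; 95% interval -0.73 to 0.58). Within each retina the ratio of Gad1 to Gad2 per exon length was between 5.52 and 7.02 in WT and between 6.26 and 7.95 in mutant retinas, which overlapped. Slc32a1, the transporter that loads GABA and glycine into vesicles, had 138.6, 101.6 and 119.9 CPM in WT and 124.8, 132.0 and 111.9 CPM in mutant retinas. All mutant values were inside the WT range, with a log2 fold change of 0.03 (SE 0.18; 95% interval -0.39 to 0.46).

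Slc6a9 (chromosome 4, 117834506 to 117875198), the glycine transporter by which glycinergic amacrine cells are recognised, had 124.1, 112.4 and 150.3 CPM in WT and 149.4, 19.8 and 148.7 CPM in mutant retinas. Wfs1-KO replicate 2 was thus 6.90-fold below the mean of the other 5 retinas, and mutant replicates 1 and 3 lay within the WT range. Over all retinas the log2 fold change was -0.28 (SE 0.64; 95% interval -1.78 to 1.21), and 0.20 (SE 0.15; 95% interval -0.12 to 0.53) without that retina. Of its exon bases, 38.8% overlap exons of Ccdc24 on the opposite strand and 13.9% those of Gm17114, and the sources used here do not say whether the counting used strand.

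The genes of the smaller transmitter classes also overlapped between genotypes. Slc17a8 (VGLUT3), which loads glutamate into the vesicles of a set of amacrine cells, had 19.9, 28.1 and 25.4 CPM in WT and 23.9, 19.96 and 23.2 CPM in mutant retinas. Th, the rate-limiting enzyme of dopamine synthesis, had 4.74, 6.22 and 4.20 CPM in WT and 5.09, 3.58 and 5.13 CPM in mutant retinas. For Slc17a8 each mutant retina was inside the WT range, and for Th replicate 2 was below it. The log2 fold change of Th was -0.14 (SE 0.27; 95% interval -0.78 to 0.50), and -0.0003 (SE 0.22; 95% interval -0.49 to 0.49) without Wfs1-KO replicate 2.

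The cholinergic genes mark starburst amacrine cells. Chat, which synthesises acetylcholine, had 12.4, 13.6 and 14.2 CPM in WT and 14.1, 16.4 and 13.9 CPM in mutant retinas. Slc18a3, the vesicular acetylcholine transporter, lies inside the Chat locus on chromosome 14 (32462438 to 32464850, within 32408203 to 32465989) without sharing exon bases with it, and had 12.4, 8.36 and 10.8 CPM in WT and 11.2, 14.3 and 10.8 CPM in mutant retinas. For both genes Wfs1-KO replicate 2 was the highest retina and the other mutant retinas were inside the WT range. Slc5a7, the high-affinity choline transporter, had 12.8, 22.0 and 22.2 CPM in WT and 21.5, 11.8 and 18.9 CPM in mutant retinas, with Wfs1-KO replicate 2 the lowest. The log2 fold changes of the 3 genes ran from -0.12 for Slc5a7 to 0.20 for Slc18a3, and from 0.05 to 0.09 without that retina. The ratio of Chat to Slc18a3 per exon length was between 0.842 and 1.37 in WT and between 0.970 and 1.08 in mutant retinas.

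Calb1 (calbindin), a calcium-binding protein of horizontal cells and a subset of amacrine cells, lies on chromosome 4 (15881264 to 15908064). It had 92.4, 104.6 and 87.3 CPM in WT and 75.3, 87.1 and 81.9 CPM in mutant retinas. All 3 mutant values were below the WT values, though the highest mutant and lowest WT values differed little. Its log2 fold change was -0.22 (SE 0.16; 95% interval -0.60 to 0.16, edgeR adjusted p = 0.979), and -0.28 (SE 0.14; 95% interval -0.58 to 0.03, edgeR adjusted p = 0.962) without Wfs1-KO replicate 2.

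Calb2, a calcium-binding protein of AII and other amacrine cells and of ganglion cells, had 458.3, 364.1 and 346.6 CPM in WT and 306.8, 675.4 and 337.7 CPM in mutant retinas. Wfs1-KO replicate 2 was the highest retina, and mutant replicates 1 and 3 were below all WT retinas. The summed level of 10 ganglion cell genes was 947.2 and 1069 CPM in mutant replicates 1 and 3, between 1110 and 1293 CPM in WT and 1445 CPM in Wfs1-KO replicate 2, with 5 of the 10 highest there and none at 0 in every retina. Without that retina 3 of the 10 were lower at an unadjusted p under 0.05 and none higher (edgeR), against 2.39% of all genes lower, and their part in the Calb2 values was not tested. With all retinas its log2 fold change was 0.18 (SE 0.32), and it was -0.28 (SE 0.15; 95% interval -0.62 to 0.05) without that retina. The ratio of Calb2 to Calb1 per exon length was 18.8 in Wfs1-KO replicate 2 and between 8.43 and 12.02 in the other 5 retinas. Dab1, an adaptor protein of reelin signalling that labels AII amacrine cells, had 46.9, 57.2 and 54.2 CPM in WT and 59.4, 40.5 and 61.2 CPM in mutant retinas, with Wfs1-KO replicate 2 the lowest of all.

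With all retinas the log2 fold changes furthest from 0 were those of the neuropeptide genes Penk, Sst and Npy, and in each of them Wfs1-KO replicate 2 was the highest retina. Penk, the precursor of the enkephalins, lies on chromosome 4 (4133531 to 4138819) and had 9.15, 8.38 and 20.9 CPM in WT and 8.92, 240.6 and 7.31 CPM in mutant retinas. The value in Wfs1-KO replicate 2 was 22.0-fold the mean of the other 5, while mutant replicate 1 was inside the WT range and replicate 3 below it. With all retinas the log2 fold change was 2.75 (SE 1.32, edgeR adjusted p = 0.979) and turned to -0.63 (SE 0.35, edgeR adjusted p = 0.966) without that retina. DESeq2 gave Penk no p-value with all retinas. Of the exon bases of Penk, 10.8% are shared with A830012C17Rik on the opposite strand.

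Npy, neuropeptide Y, had 10.3, 8.09 and 9.48 CPM in WT and 10.8, 36.0 and 9.26 CPM in mutant retinas. Only Wfs1-KO replicate 2 stood apart, and the log2 fold change of 1.01 (SE 0.51, edgeR adjusted p = 0.979) was 0.11 (SE 0.19; 95% interval -0.30 to 0.52) without it. Sst, somatostatin, had the fewest counts of the peptide genes, with 92, 10 and 22 counts in WT and 159, 241 and 92 in mutant retinas, or 1.39, 0.210 and 1.25 CPM and 1.54, 5.71 and 2.09 CPM. Each mutant retina was above each WT retina. Its log2 fold change was 1.72 (SE 0.77; 95% interval -0.09 to 3.53, edgeR adjusted p = 0.979), and 0.95 (SE 0.58; 95% interval -0.33 to 2.23, edgeR adjusted p = 0.966) without Wfs1-KO replicate 2.

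Vip, vasoactive intestinal peptide, had 14.03, 17.6 and 7.43 CPM in WT and 8.57, 17.4 and 16.5 CPM in mutant retinas. WT replicate 3 and Wfs1-KO replicate 1 were the low retinas, so the difference within each genotype exceeded that between them. Tac1, the precursor of substance P, had 20.4, 21.1 and 18.0 CPM in WT and 14.6, 27.7 and 17.1 CPM in mutant retinas, with the highest and the lowest value both in mutants. Its log2 fold change was -0.01 (SE 0.27), and -0.34 (SE 0.16; 95% interval -0.69 to 0.02, edgeR adjusted p = 0.962) without Wfs1-KO replicate 2. Nos1, neuronal nitric oxide synthase of a class of wide-field amacrine cells, had 11.2, 14.5 and 16.2 CPM in WT and 14.8, 6.35 and 17.8 CPM in mutant retinas, with Wfs1-KO replicate 2 lowest.

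Several peptide genes and Th are textbook targets of CREB, which binds the cAMP response element TGACGTCA or the shorter core TGACG. The promoter sequences just upstream of their starts are shown for the peptide genes in the promoter table and for Th, to set the element beside their values, and Penk had no entry in that table. Each is the 150 bases before the start in RefSeq on GRCm38.p6, 5′ to 3′ on the strand of the gene, with matches to the element or to the core on either strand in capitals. They are Sst at chr16:23890845-23890994 (minus strand), Th at chr7:142899996-142900145 (minus strand), Vip at chr10:5639068-5639217 (plus strand), Tac1 at chr6:7554911-7555060 (plus strand) and Npy at chr6:49822560-49822709 (plus strand).
Sst: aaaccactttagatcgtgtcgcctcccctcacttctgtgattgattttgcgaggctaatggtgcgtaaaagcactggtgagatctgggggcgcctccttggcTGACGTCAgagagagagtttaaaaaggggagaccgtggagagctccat
Th: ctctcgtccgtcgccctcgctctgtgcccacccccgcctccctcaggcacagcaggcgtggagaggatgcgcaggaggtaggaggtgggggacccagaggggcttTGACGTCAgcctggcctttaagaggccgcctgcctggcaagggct
Vip: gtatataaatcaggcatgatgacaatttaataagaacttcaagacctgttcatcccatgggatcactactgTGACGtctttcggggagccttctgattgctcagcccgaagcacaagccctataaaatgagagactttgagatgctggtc
Tac1: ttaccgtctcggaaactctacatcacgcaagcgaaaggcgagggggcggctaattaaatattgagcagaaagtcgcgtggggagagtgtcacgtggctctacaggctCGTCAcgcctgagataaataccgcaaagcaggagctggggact
Npy: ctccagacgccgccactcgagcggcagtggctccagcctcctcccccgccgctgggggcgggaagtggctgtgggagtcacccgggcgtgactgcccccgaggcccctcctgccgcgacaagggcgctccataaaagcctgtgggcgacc

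Sst and Th held the full element, starting 48 and 45 bases before the start, Vip and Tac1 held the core alone, and the Npy window held neither. In the window of 250 bases before to 50 after the start, the full element was present in 3 of the 25 genes with a promoter entry, Sst, Th and Pax6, and in 2.03% of the 27025 genes with an entry when any of a gene's windows counted (1.79% of all 32851 promoters). The core, which includes the full element, was present in 16 of the 25 and in 23.0% of the genes (20.8% of all promoters). A letter match is a description of the window. In Wfs1-KO replicate 2, Sst and Npy were 4.41-fold and 3.76-fold the mean of the other 5 retinas, Tac1 and Vip 1.51-fold and 1.36-fold, and Th 0.704-fold. These are values of a single retina, and a part of the element in them was not tested.

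The gap junction genes are known from different cells, and whole-retina values do not show which cells their counts came from. Gjd2, the connexin that couples AII amacrine cells to each other and to ON bipolar cells, had 126.9, 127.3 and 125.2 CPM in WT and 117.0, 92.5 and 116.3 CPM in mutant retinas. The WT values were within a narrow band and each mutant retina was below it. The log2 fold change was -0.22 (SE 0.17; 95% interval -0.61 to 0.17, edgeR adjusted p = 0.979), and -0.12 (SE 0.12; 95% interval -0.39 to 0.15) without Wfs1-KO replicate 2.

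Gja10, the connexin of mouse horizontal cells, lies on chromosome 4 (32596960 to 32602760) and had 2.02, 2.35 and 2.89 CPM in WT and 2.69, 0.237 and 2.88 CPM in mutant retinas. The value in Wfs1-KO replicate 2 came from 10 counts and was 10.8-fold below the mean of the other 5, while mutant replicates 1 and 3 were inside the WT range. The log2 fold change was -0.31 (SE 0.75; 95% interval -2.07 to 1.45), and 0.22 (SE 0.26; 95% interval -0.37 to 0.80) without that retina.

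The amacrine cell transcription factors Pax6, Tfap2a, Tfap2b and Tfap2c each overlapped between genotypes. Pax6, which is kept on in mature amacrine and ganglion cells, had 313.6, 336.9 and 309.3 CPM in WT and 315.1, 394.8 and 323.2 CPM in mutant retinas. Tfap2a, an AP-2 factor of amacrine cells, had 33.3, 34.8 and 31.6 CPM in WT and 32.7, 36.0 and 31.2 CPM in mutant retinas. For both, Wfs1-KO replicate 2 was the highest retina, and the other mutant retinas were within the WT range except for Tfap2a in replicate 3, which was just below it. The log2 fold change was 0.11 for Pax6 (95% interval -0.29 to 0.50) and 0.0019 for Tfap2a (95% interval -0.37 to 0.38). Tfap2b, its paralog in the same cells, had 162.9, 215.9 and 188.6 CPM in WT and 221.7, 266.8 and 206.7 CPM in mutant retinas, which overlapped (log2 fold change 0.29, SE 0.19; 95% interval -0.15 to 0.74). The ratio of Tfap2b to Tfap2a per exon length was between 3.53 and 4.46 in WT and between 4.77 and 5.34 in mutant retinas, without overlap. It was the only ratio of the 7 compared for which this was so. No ratio was tested, and ratios of other gene pairs were not computed, so no background share can be given. The third AP-2 gene, Tfap2c, had 20.1, 20.8 and 17.6 CPM in WT and 17.6, 18.6 and 17.8 CPM in mutant retinas.

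Lhx9, a LIM homeobox factor of a subset of amacrine cells, had 11.1, 15.1 and 12.6 CPM in WT and 12.3, 11.98 and 12.3 CPM in mutant retinas. Prox1, which is kept in horizontal cells, AII amacrine cells and some bipolar cells, had 144.2, 219.3 and 201.3 CPM in WT and 223.5, 151.0 and 204.7 CPM in mutant retinas. The genotypes overlapped for both, and WT replicate 1 and Wfs1-KO replicate 2 were the low ones for Prox1. Ptf1a, the embryonic determinant of both cell classes, had 0, 4 and 2 counts in WT and 2, 0 and 1 counts in mutant retinas, at or near the floor of 3 counts, so no fold change is given.

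The horizontal cell factors Lhx1, Onecut1, Onecut2 and Onecut3 were low, and in Wfs1-KO replicate 2 they lay on different sides of the other retinas. Whole-retina values do not show which cells their counts came from. Lhx1, a LIM homeobox factor of horizontal cells, had 5.52, 7.48 and 8.74 CPM in WT and 7.46, 5.02 and 9.08 CPM in mutant retinas. Onecut1 had 1.10, 2.37 and 2.21 CPM in WT and 2.66, 0.994 and 2.57 CPM in mutant retinas, and 54.9% of its exon bases are shared with Gm20649 on the same strand, so its counts are uncertain. Onecut3 had 5.84, 5.67 and 7.95 CPM in WT and 7.08, 2.20 and 6.06 CPM in mutant retinas. For these genes Wfs1-KO replicate 2 was the lowest retina. Onecut2, on chromosome 18, had 4.94, 7.27 and 7.26 CPM in WT and 7.59, 21.7 and 8.38 CPM in mutant retinas, so that each mutant retina was above each WT retina. Its log2 fold change was 0.95 (SE 0.44; 95% interval -0.07 to 1.97, edgeR adjusted p = 0.979), and 0.30 (SE 0.22; 95% interval -0.18 to 0.78, edgeR adjusted p = 0.968) without Wfs1-KO replicate 2. The ratio of Onecut2 to Onecut1 per exon length was 5.31 in that retina and between 0.696 and 1.10 in the other 5.

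A ratio of 2 gene groups was taken within each retina. It was the summed CPM of 7 horizontal cell genes (Onecut1, Onecut2, Onecut3, Lhx1, Calb1, Gja10 and Prox1) over that of Gad1, Gad2, Slc32a1 and Slc6a9. It was 0.411, 0.530 and 0.458 in WT and 0.445, 0.576 and 0.429 in mutant retinas, with a mean of 0.466 ± 0.060 and 0.483 ± 0.081 (SD, n = 3 each). The genotypes overlapped, and Wfs1-KO replicate 2, where Slc6a9 was low, had the highest value. With Slc6a9 left out of the sum, a choice made after seeing the data, that retina had 0.602, inside the WT range of 0.513 to 0.639. Prox1 and Calb1 made up most of the horizontal cell sum, and both are also expressed by amacrine cells. The ratio is therefore not a measure of the balance between both cell classes.

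Genes whose retinas did not overlap between genotypes were Sst and Onecut2, higher in mutants (5.01% of all tested genes), and Calb1 and Gjd2, lower in mutants (3.94% of all), together 4 of 30 against 8.96% of all. Without Wfs1-KO replicate 2, which leaves 3 against 2 retinas, 5 genes were higher without overlap (Gad1, Dab1, Sst, Onecut1 and Onecut2; 11.0% of all tested genes) and 4 were lower (Calb1, Calb2, Tac1 and Gjd2; 11.4% of all), together 9 of 30 against 22.5% of all. With or without that retina, none of these differences passed the threshold in edgeR's test.

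**Figure D3:**
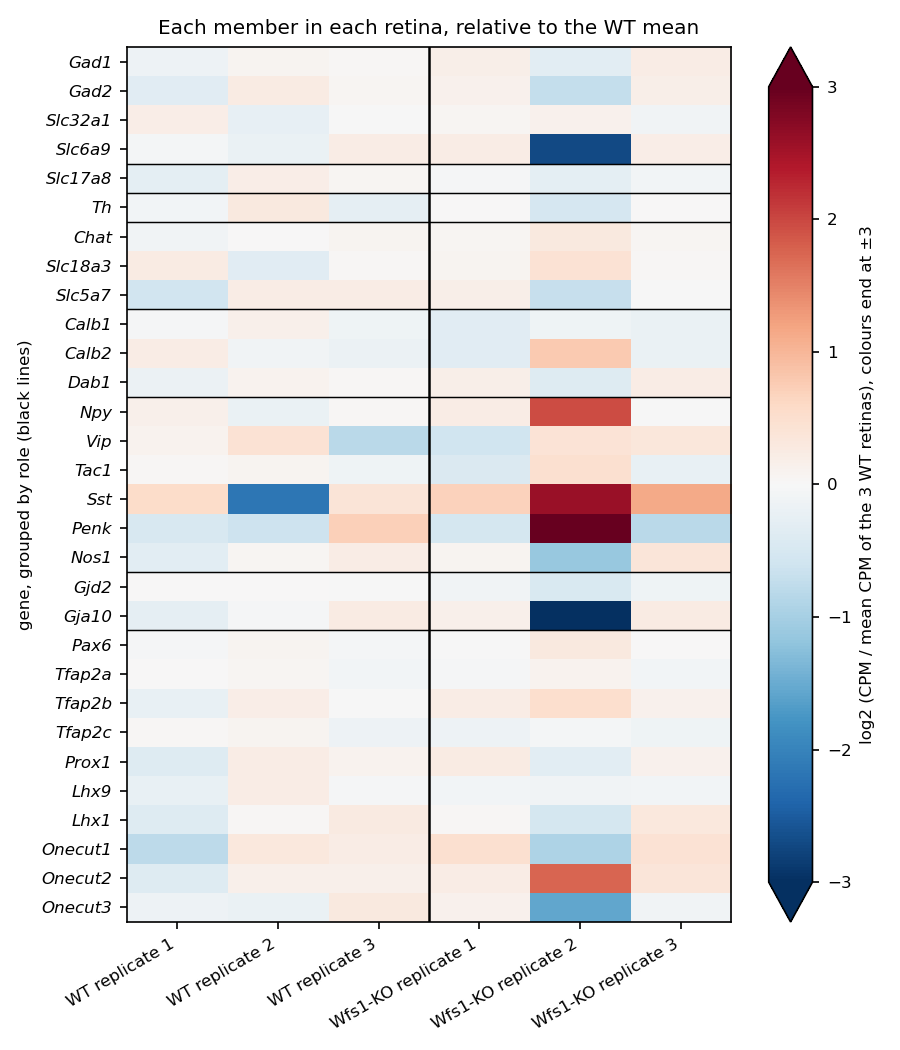
Each tested gene (rows, grouped by role) in each retina (columns), coloured by the log2 ratio of its CPM to the mean of the 3 WT retinas, with colours ending at 3 in either direction. Most of the strong colours are in the Wfs1-KO replicate 2 column, where Penk, Sst, Npy and Onecut2 are high and Gja10, Slc6a9 and Onecut3 are low, and Sst is also low in WT replicate 2, with 0.210 CPM. Outside these cells, the palest rows include Pax6, Tfap2a and Gjd2.

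Wfs1-KO replicate 2 was more than 2-fold above the mean of the other 5 retinas for 4 of the 30 tested genes (Penk, Sst, Npy and Onecut2) and more than 2-fold below it for 5 (Gja10, Slc6a9, Onecut3, Nos1 and Onecut1). These 9 genes compare with 30.9% of all tested genes that differed by that much in that retina, so the share among the members was close to the background. In the other retinas 1 or 2 members differed by more than 2-fold, against 4.52% to 9.75% of all tested genes. Across the 30 members the log2 ratio of that retina to the others fell with exon length (Spearman's rho = -0.39, across genes, which are not independent replicates), and the same value over all 18547 tested genes was -0.39. With the GC content of the longest transcript the rho was -0.002 for the members and 0.100 over all genes with a value. Onecut2, with the longest exons (16234 bases) and a level above the others, and Gja10, with 2156 bases and the lowest ratio, both went against this relation.

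**Figure D4:**
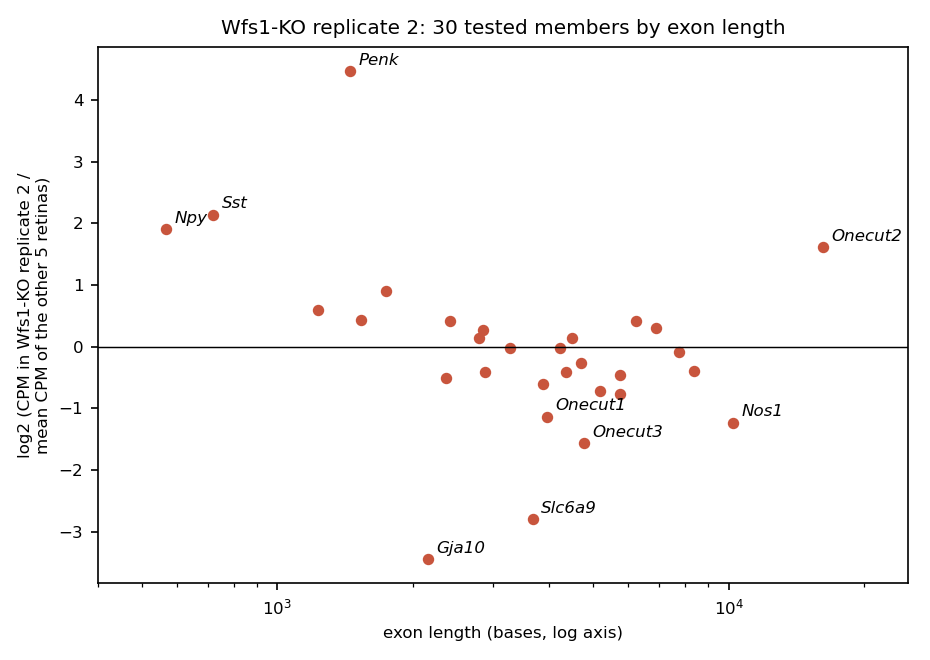
Log2 ratio of CPM in Wfs1-KO replicate 2 to the mean of the other 5 retinas (vertical axis) against exon length (bases, log axis) for the 30 tested genes, with names on those beyond a 2-fold difference. The short peptide genes Npy and Sst lie above 0, Nos1 and Onecut3 below it, and Onecut2, with 16234 bases, above it.

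Other genes of the same cells and transmitter pathways were examined as a list of 68 found in the table, which holds transporters, enzymes, receptors and transcription factors such as Ddc, Megf10 and Barhl2. Of 63 tested, 0 had an adjusted p under 0.05 and 0 an unadjusted p under 0.05 in edgeR's test, and their median log2 fold change was -0.004. Without Wfs1-KO replicate 2, 4 of 64 had an unadjusted p under 0.05 against 5.19% of all genes, and 0 an adjusted p under 0.05.

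Among these, 3 genes are described without that retina. Pts, an enzyme of tetrahydrobiopterin synthesis, the cofactor of Th, had 28.9, 29.3 and 25.0 CPM in WT and 19.1 and 18.6 CPM in mutant replicates 1 and 3, a log2 fold change of -0.57 (SE 0.15, edgeR adjusted p = 0.444), while replicate 2 had 33.3 CPM. Pvalb, the calcium-binding protein parvalbumin, had a log2 fold change of -0.45 (SE 0.20, edgeR adjusted p = 0.959), and 43.6 CPM in replicate 2 against 14.1 to 19.6 CPM in WT. Prdm13, a factor of amacrine cell specification, had a log2 fold change of 0.36 (SE 0.15, edgeR adjusted p = 0.910). In these 3 genes replicate 2 lay on the other side of the WT mean from mutant replicates 1 and 3. The choice favours this, as the genes had an unadjusted p under 0.05 in edgeR's test only without that retina.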

How the data were processed

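Counts of reads per gene were deposited by the authors as whole numbers that were not normalized, in a table for the whole series. The submitters' processing notes name Trimmomatic 0.39, STAR 2.5.3a, featureCounts 1.6.4 and mm10, and the strand setting is not given in the sources used here. Columns were matched to the 6 libraries by name, taking C as control and W as Wfs1, and 2 further columns, which no listed sample matched, were left out. Overlapping genes and antisense genes can therefore share reads, as stated beside Slc6a9, Penk and Onecut1. Exons on the opposite strand also overlap 40.4% of the exon bases of Ptf1a (Ptf1aos) and 24.9% of those of Slc32a1 (Gm14205). For Tfap2a the shares were 8.47% (Gm26688), 5.90% (Gm47061) and 1.63% (Gm47067). For Nos1, Gjd2 and Prox1 they were 2.62%, 1.98% and 1.59%.

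Genes were filtered with filterByExpr, scaled with TMM and tested with the quasi-likelihood test of edgeR 4.0.16 (glmQLFit and glmQLFTest, R 4.3.3), genotype being the single term, with Benjamini-Hochberg adjustment over all tested genes and a threshold of 0.05. Standard errors came from the log2 fold change and its F value, and 95% intervals from the t quantile. CPM used effective library sizes, and RPKM the exon length of the deposited table. Alternatives were DESeq2 1.42.0, limma 3.58.1 voom with and without sample quality weights, other normalizations and filters, a replicate block and each retina left out. The fits were tested on simulated data that gave all genes the same dispersion and held no outlying library. That test therefore does not cover a retina such as Wfs1-KO replicate 2. Exon overlaps came from the exon intervals of the deposited table, gene positions from GENCODE annotation on mm10 and promoters from RefSeq.

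The members and gene lists were chosen with earlier results of these data known. The named genes are all members, and of the other list those at an unadjusted p under 0.05, of which 1 is not reported here. No pair of libraries agreed within sampling noise (chi-square per gene at least 12.9).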

Additional observations from a re-analysis of the deposited data

How the results depend on the processing

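No tested member had an adjusted p under 0.05 under any alternative run. None of the 480 recomputed log2 fold changes crossed that threshold, and 448 of them were within 1 standard error of the reported value. The sign changed in 88 of them, over 22 genes, and the cause was not tested. At an unadjusted p under 0.05 the genes higher in Wfs1-KO numbered 3 with DESeq2 (2.69% of all genes), 1 with limma-voom and sample quality weights (4.30%), 4 without a low-count filter (3.29%) and 0 to 4 when each retina was left out in turn, and those lower numbered 2 with the quality weights (3.33%) and 1 with DESeq2 and without Wfs1-KO replicate 2 (3.27% in either direction). Genes without overlap numbered 2 to 5 (higher) and 2 to 5 (lower) when each retina was left out, where 8.23% to 11.1% (higher) and 6.53% to 11.4% (lower) of all genes did not overlap, and 1 (lower) with upper-quartile normalization (3.75%) or with at least 10 counts in every retina (3.88%). The 4 higher genes were Npy, Sst, Penk and Onecut2 without Wfs1-KO replicate 1 (3.74% of all genes) or 3 (4.47%), and lower non-overlapping genes numbered 5 without WT replicate 1 (9.32%).

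Whether equal replicate numbers pair the retinas is not settled. The deviations of retinas with the same number correlated at -0.234, -0.111 and 0.078 for numbers 1, 2 and 3. With 3 retinas per genotype and Wfs1-KO replicate 2 apart, these correlations cannot decide it. Without that retina, a replicate block lowered edgeR's common dispersion from 0.0322 to 0.0264. The genes with an adjusted p under 0.05 in edgeR's test then went from 24 to 46 of 19178. With a replicate block and all retinas, 0 of 30 members had an adjusted p under 0.05 (edgeR), against 1 of all 18547 genes. At an unadjusted p under 0.05 there were also 0 of 30, against 1.67% of all, 1.26% higher and 0.415% lower. With the replicate block and without Wfs1-KO replicate 2, 1 gene was higher (Onecut1) and 1 lower (Penk) at an unadjusted p under 0.05, against 9.27% of all genes, and log2 fold changes of the opposite sign were 0.30 for Gad2, -0.13 for Slc32a1, 0.12 for Slc6a9, 0.064 for Slc17a8, 0.18 for Th, -0.091 for Slc18a3, 0.27 for Slc5a7, -0.32 for Calb2, -0.76 for Penk, 0.27 for Nos1, 0.21 for Gja10, -0.0298 for Tfap2a, 0.053 for Lhx9 and 0.24 for Lhx1.

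Leaving out each retina in turn gave log2 fold changes of -0.057 to 0.19 for Gad1, -0.079 to 0.19 for Dab1, -0.34 to 0.17 for Tac1, -0.12 to 0.18 for Prox1, -0.14 to 0.48 for Onecut1, -0.23 to 0.15 for Gad2, -0.074 to 0.15 for Slc32a1, -0.27 to 0.038 for Th, -0.19 to 0.041 for Lhx9, -0.21 to 0.20 for Lhx1, -0.18 to 0.39 for Vip, -0.40 to 0.22 for Nos1, -0.064 to 0.044 for Tfap2a, -0.61 to 0.20 for Slc6a9, -0.35 to 0.094 for Slc5a7, -0.28 to 0.38 for Calb2, -0.63 to 3.29 for Penk, -0.69 to 0.22 for Gja10, -0.0089 to 0.16 for Pax6 and -0.65 to 0.0302 for Onecut3. With DESeq2 and without Wfs1-KO replicate 2 the sign changed to 0.15 for Gad2, -0.026 for Slc32a1, 0.20 for Slc6a9, 0.091 for Slc5a7, -0.28 for Calb2, -0.074 for Vip, -0.65 for Penk, 0.23 for Nos1, 0.22 for Gja10, -0.0092 for Pax6, -0.065 for Tfap2a, 0.20 for Lhx1 and 0.033 for Onecut3. With limma-voom and sample quality weights it changed to 0.11 for Gad2, 0.11 for Slc6a9, 0.0301 for Th, 0.073 for Slc5a7, -0.20 for Calb2, -0.15 for Vip, -0.52 for Penk, 0.13 for Nos1, 0.13 for Gja10, -0.035 for Tfap2a, 0.10 for Lhx1 and 0.032 for Onecut3. With limma-voom alone it changed to -0.0009 for Vip, -0.0043 for Tfap2a and 0.048 for Lhx1, with upper-quartile normalization to 0.0199 for Tac1 and 0.0051 for Lhx1, and with at least 10 counts in every retina to 0.014 for Tac1 and 0.0062 for Lhx1. For Tfap2a it changed to -0.014 with DESeq2, -0.0101 with RLE normalization and -0.028 without a low-count filter. WT replicate 3 had the fewest counts, and Sst, Gja10 and Onecut1 had under 50 counts in at least 1 retina, which limits their precision.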
